A study of Homo sapiens with 40 samples.

Results

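The RNA levels of 10 genes of the IL-1 and IL-6 cytokine systems were followed in 24 RNA-seq libraries of human breast cell lines. The genes were IL1A, IL1B, IL1RN, IL18, IL36G, IL6, IL11, LIF, IL24 and IL6ST, and they were taken by symbol from the 60708 genes of the count tables. The list had been selected on the counts of these same libraries, so levels and fold-changes of the 10 genes are given as description, without p-values. Where members are counted by the cut-off used for all genes, the count only describes these libraries. The same holds where libraries of a member do not overlap between groups, since the share of all genes without overlap is not given. Tests are given for other genes of the same pathways in 10 lists. These lists were also drawn up with earlier results of these data known, so their counts and p-values carry that limit. IL24 is by sequence a member of the IL-20 subfamily, and IL6ST encodes a receptor and no cytokine, so the label of cytokines of the IL-1 and IL-6 families holds for 8 of the 10 genes.

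There were 8 groups of 3 libraries. MI cells (MCF-10A, immortalized mammary epithelial cells) and MII cells (MCF-10A transformed with HRAS) grew as spheres in low-attachment plates and received 2.5 ng/ml TGFβ1 for 16 h (TGFβ) or none (Ctrl). MDA-MB-231 cells, a triple-negative breast carcinoma line with mutated RAS signalling, grew in monolayer and were unedited (WT), edited with Cas9 protein and a guide at the start of SNAI2 exon 1 (SLUG KO), transfected with scramble siRNA (Csi), or transfected with siRNAs against SMAD2, SMAD3 and SMAD4 together (siSMAD2/3/4). The edited cells were expanded from single-cell colonies, and how many clones the 3 libraries stand for is not given in the sources used here. The Csi and siSMAD2/3/4 libraries came from another sequencing batch than the other 18, so levels between those sets cannot be told apart from batch, and spheres and MDA-MB-231 cells differ in both line and culture.

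Total counts per library ran from 14124688 to 38406952. WT replicate 2 stood apart: its log2 CPM (read counts relative to library size after TMM scaling, which evens out library composition) correlated with those of WT replicates 1 and 3 across genes with r of 0.957 and 0.952, where every pair of libraries within the other 7 groups was at 0.984 or above. Fold-changes of the members and the named pathway genes in SLUG KO against WT are therefore given with and without it. HRAS was at 220.1 ± 4.1 CPM (SD, n = 3) in MII Ctrl and 40.7 ± 1.0 in MI Ctrl. In the siSMAD2/3/4 libraries SMAD2 fell by 1.92, SMAD4 by 1.72 and SMAD3 by 0.69 on the log2 scale (edgeR adjusted p of 2.65e-22, 1.5e-19 and 9.7e-15). SNAI2 RNA was higher in the libraries labelled SLUG KO (63.5, 57.7 and 64.3 CPM) than in WT (30.2, 20.9 and 33.7 CPM), which goes against the label at the RNA level. Counts over the whole gene do not check a small edit in exon 1. The authors report that knockout clones were checked by ddPCR and immunoblotting, and the counts used here add no check of their own. PTPRC, CD3E and CD68, defining leukocyte markers, were at 0.58 CPM or less in every library, while of 8 mammary basal epithelial markers 5 or 6 were at 1 CPM or more in each MDA-MB-231 group, with a summed level of 629 to 1373 CPM, and the keratins KRT5 and KRT14 were under 1 CPM there. CD14, also on the leukocyte list, was present, and the summed list stood at 103.3 to 111.4 CPM in MI-spheres, 217 to 236 in MII-spheres and 6.65 to 23.3 in MDA-MB-231 cells. In bulk RNA, fewer cells making a transcript and less of it per cell cannot be told apart.

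IL-1α (IL1A) and IL-1β (IL1B) are agonists that bind the receptor IL1R1 together with its partner IL1RAP and signal through MYD88 and IRAK kinases to NF-κB. The antagonist encoded by IL1RN occupies IL1R1 without recruiting the partner. IL-18 and IL-36γ (IL36G) are relatives that use their own receptors. IL-6, IL-11 and LIF each bind a receptor of their own and then share gp130, the product of IL6ST, which activates JAK kinases and STAT3, with SOCS3 as an inhibitor induced in turn. IL-24 signals through IL20RB paired with IL20RA or IL22RA1, also to STAT3. Epithelial cells are a known source of IL-1α, IL-18 and IL-36γ, and IL-6, IL-11 and LIF are known products of carcinoma cells.

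IL1A (2:112773925-112784493), IL1B (2:112829751-112836816), IL36G (2:112973203-112985658) and IL1RN (2:113107214-113134016) lie near each other on chromosome 2 (GRCh38, as in the count tables). The others lie apart, IL24 at 1:206897443-206904139, IL6ST at 5:55935095-55995022, IL6 at 7:22725884-22732002, IL18 at 11:112143253-112164096, IL11 at 19:55364382-55370463 and LIF at 22:30240453-30246759. Reads were counted without regard to strand, and a read that overlapped several genes was counted for none. Of the exon bases of IL24, 41.6% also lie in exons of FCMR on the other strand, and for IL6 20.7%, for IL6ST 7.88% and for LIF 4.37% lie in exons of other genes. Reads there were counted for neither gene, and the part of this in the levels was not tested. The other 6 share no exon base with another gene.

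The 250 bases before the RefSeq transcript start (GRCh38.p14, coding strand) are shown for the 4 members with the largest difference between the SLUG KO and WT libraries. They are IL6 (7:22726950-22727199), IL11 (19:55370464-55370713), IL1RN (2:113117721-113117970) and IL24 (1:206897193-206897442). Capitals mark matches, on either strand, to 7 motifs: the E2-box CAGGTG that SLUG binds, AP-1 (TGANTCA), NF-κB (GGG, any 2 bases, then TTTCC), STAT (TTCNNNGAA), SMAD (CAGACA), the TATA box (TATAAA) and the cAMP element (TGACGTCA).
IL6: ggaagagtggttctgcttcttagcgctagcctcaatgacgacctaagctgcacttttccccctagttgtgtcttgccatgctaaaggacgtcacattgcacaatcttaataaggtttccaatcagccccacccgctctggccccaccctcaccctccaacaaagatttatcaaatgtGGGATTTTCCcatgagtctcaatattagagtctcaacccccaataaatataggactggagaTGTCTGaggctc
IL11: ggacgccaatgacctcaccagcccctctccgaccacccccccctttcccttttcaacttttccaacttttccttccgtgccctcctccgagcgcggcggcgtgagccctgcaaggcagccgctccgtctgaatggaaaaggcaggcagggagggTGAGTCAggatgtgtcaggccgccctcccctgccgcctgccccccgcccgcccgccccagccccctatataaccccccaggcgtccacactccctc
IL1RN: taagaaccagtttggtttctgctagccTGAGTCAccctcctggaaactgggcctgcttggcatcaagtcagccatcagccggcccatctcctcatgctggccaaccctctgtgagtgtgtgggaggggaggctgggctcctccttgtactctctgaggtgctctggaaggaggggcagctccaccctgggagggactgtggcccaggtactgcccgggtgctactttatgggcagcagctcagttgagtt
IL24: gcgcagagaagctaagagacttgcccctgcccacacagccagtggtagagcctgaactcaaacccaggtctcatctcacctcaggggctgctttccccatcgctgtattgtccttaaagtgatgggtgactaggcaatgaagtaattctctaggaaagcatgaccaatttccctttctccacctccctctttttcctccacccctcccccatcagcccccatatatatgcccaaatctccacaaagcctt
The IL6 stretch held an NF-κB match at 73 bases before the start, which 1.73% of 35116 promoters hold, and a SMAD match at 12 bases, which 13.6% hold. An AP-1 match, held by 6.57% of promoters, stood at 96 bases before the start of IL11 and at 223 bases before that of IL1RN. The IL24 stretch held none of the 7 motifs. An E2-box, present in 17.5% of promoters, was in none of these 4 stretches, and among the 8 members in the RefSeq table it was found for IL36G alone, at 169 bases. IL1A held AP-1 at 12 bases and a TATA box at 239 bases, IL1B held a STAT match at 180 bases, and IL6ST held none. These are matches of letters in a short window and say nothing of binding. IL18 and LIF were not in the table.

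Of the IL-1 side, the agonists and the antagonist were MI genes. IL1A fell in the order MI TGFβ (28.6 ± 3.1 CPM, SD, n = 3), MI Ctrl (16.6 ± 0.31) and MII TGFβ (5.64 ± 0.60), with no overlap between these groups. WT, MII Ctrl and SLUG KO followed at 1.86, 1.59 and 1.59 CPM and overlapped, and Csi and siSMAD2/3/4 were lowest at 0.480 and 0.389 CPM. IL1B kept the same order among the spheres, from 11.8 ± 0.40 CPM in MI TGFβ to 2.18 ± 0.16 in MII Ctrl, and the MDA-MB-231 groups lay between 0.811 and 1.87 CPM, each overlapping its neighbour in the order. IL1RN was at 65.3 ± 2.4 CPM in MI Ctrl, 44.2 ± 2.1 in MI TGFβ, 13.9 ± 0.65 in MII TGFβ and 11.9 ± 1.2 in MII Ctrl. In MDA-MB-231 cells it was at 5.69 ± 0.33 CPM in the libraries labelled SLUG KO and at 0.316 to 0.464 CPM in the other 3 groups, which overlapped.

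IL18, unlike the IL-1 genes, was high in both sphere lines and highest in MII. It was at 189.8 ± 12 CPM in MII TGFβ and 189 ± 8.2 in MII Ctrl, which overlapped, at 159 ± 7.9 in MI TGFβ and at 131.3 ± 8.1 in MI Ctrl. MDA-MB-231 cells had 30.2 ± 2.1 CPM in SLUG KO and 12.2 to 14.5 in the other groups. IL36G was close to the limit of counting outside MI Ctrl. Its counts were 27, 30 and 16 in the 3 MI Ctrl libraries and 0, 5 and 4 in MI TGFβ, and no library of the other 6 groups had more than 2.

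On the IL-6 side, IL6 and IL6ST were higher in MDA-MB-231 cells than in spheres, where IL6ST was still abundant. IL6 was at 36.0 ± 6.5 CPM in SLUG KO, then at 8.02 ± 2.0 in WT, 7.62 ± 0.79 in siSMAD2/3/4 and 6.85 ± 0.29 in Csi, the last 3 overlapping each other. In spheres its mean was at most 0.493 CPM, and its highest count in a library was 16. IL6ST ranged from 714 ± 34 CPM in SLUG KO to 83.6 ± 2.9 in MII Ctrl. The WT mean of 499 ± 233 hid a low WT replicate 2 at 230.2 CPM beside 623 and 644 in replicates 1 and 3. IL11 was at 21.3 ± 4.0 CPM in WT and 10.3 ± 0.20 in Csi, at about the same level in MI Ctrl (5.55), MI TGFβ (5.49) and siSMAD2/3/4 (5.47), and lowest in MII TGFβ (2.49), MII Ctrl (0.898) and SLUG KO (0.602), of which the last pair overlapped. LIF was the most even of the cytokines, from 10.96 ± 0.85 CPM in MI TGFβ and 20.5 ± 1.4 in MI Ctrl to 53.5 ± 5.3 in SLUG KO. IL24 was at 22.1 ± 0.60 CPM in SLUG KO, at 1.497 ± 0.80 in WT and 1.03 ± 0.22 in MI Ctrl, which overlapped, and at 0.429 CPM or less in the other 5 groups.

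Per kilobase of exon, which allows levels to be set between genes, IL18 RNA led the 10 genes in all 4 sphere groups, at 50.4 CPM per kilobase in MI Ctrl and 72.6 in MII Ctrl. IL6ST led in the 4 MDA-MB-231 groups, at 29.0 to 70.5 CPM per kilobase. In second place stood IL1RN in MI Ctrl (20.1), LIF in MII Ctrl and MII TGFβ (9.62 and 11.8) and in WT, Csi and siSMAD2/3/4 (10.9, 12.99 and 11.5), and IL6 in SLUG KO (17.4). In MI TGFβ the SDs of IL1A (14.2 ± 1.5), IL1RN (13.6 ± 0.66) and IL6ST (13.5 ± 1.3) overlapped, so no gene stood alone in second place. SDs also overlapped the next gene in WT (LIF 10.9 ± 3.4, IL11 7.96 ± 1.5) and SLUG KO (IL6 17.4 ± 3.1, LIF 13.8 ± 1.4). The antagonist relative to the agonists, as IL1RN over the sum of IL1A and IL1B per kilobase, was 1.75 ± 0.095 (SD, n = 3) in MI Ctrl and 2.43 ± 0.29 in MII Ctrl. With TGFβ the ratio was 0.758 ± 0.091 in MI and 1.16 ± 0.11 in MII, and the stimulated libraries lay below the unstimulated ones of their line. It was 0.105 ± 0.049 in WT, 1.45 ± 0.12 in SLUG KO, 0.286 ± 0.12 in Csi and 0.195 ± 0.055 in siSMAD2/3/4.

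**Figure D1:**
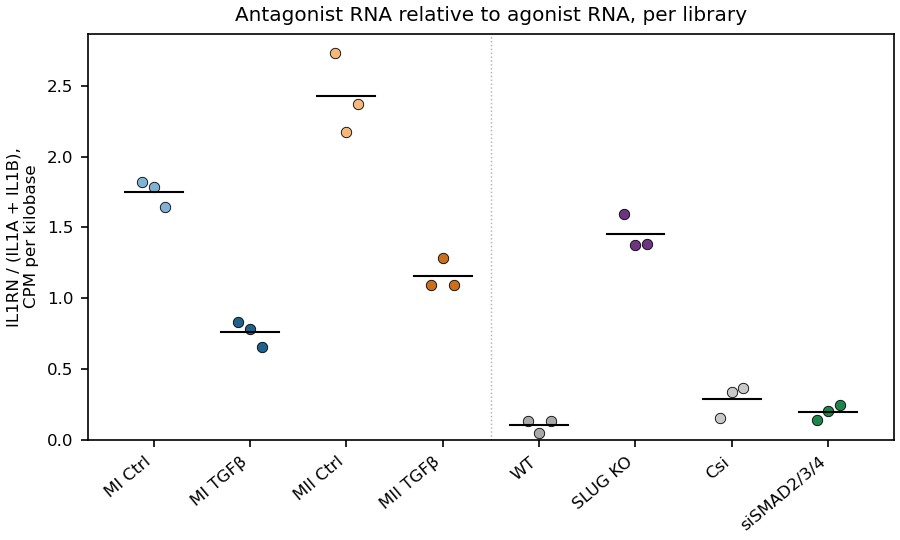
IL1RN divided by the sum of IL1A and IL1B, each in CPM per kilobase of exon, for each library (points) with group means (lines). The 3 libraries labelled SLUG KO lie between 1.37 and 1.59 and the 3 WT libraries between 0.0482 and 0.134.

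The receptors of these ligands were spread unevenly. IL1R1 was present in every group, from 6.33 ± 0.49 CPM in MII Ctrl to 62.8 ± 2.0 in siSMAD2/3/4, and so was its partner IL1RAP, from 16.8 to 31.8 CPM. The decoy receptor IL1R2 was at 0.531 CPM at most, and IL1RL2, the receptor of IL-36γ, at 1.34 CPM at most, in WT. IL18R1 was at 12.04 ± 0.86 CPM in MII Ctrl, 4.31 ± 0.53 in MI Ctrl and 0.182 or less in MDA-MB-231 groups. LIFR was at 147 to 177 CPM in MDA-MB-231 groups, 16.1 ± 1.1 in MII Ctrl and 3.24 ± 0.54 in MI Ctrl. OSMR, which pairs with gp130 for oncostatin M, ran from 49.3 ± 3.5 CPM in MI Ctrl to 292 ± 11 in Csi. IL6R was low throughout, at 0.344 to 1.88 CPM, and IL11RA lay between 3.11 and 6.57 CPM. IL20RB was at 65.1 to 138 CPM in spheres and at 0.810 CPM or less in MDA-MB-231 cells, where IL24 was highest. IL20RA and IL22RA1 stayed at 0.952 and 1.31 CPM or less.

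**Figure D2:**
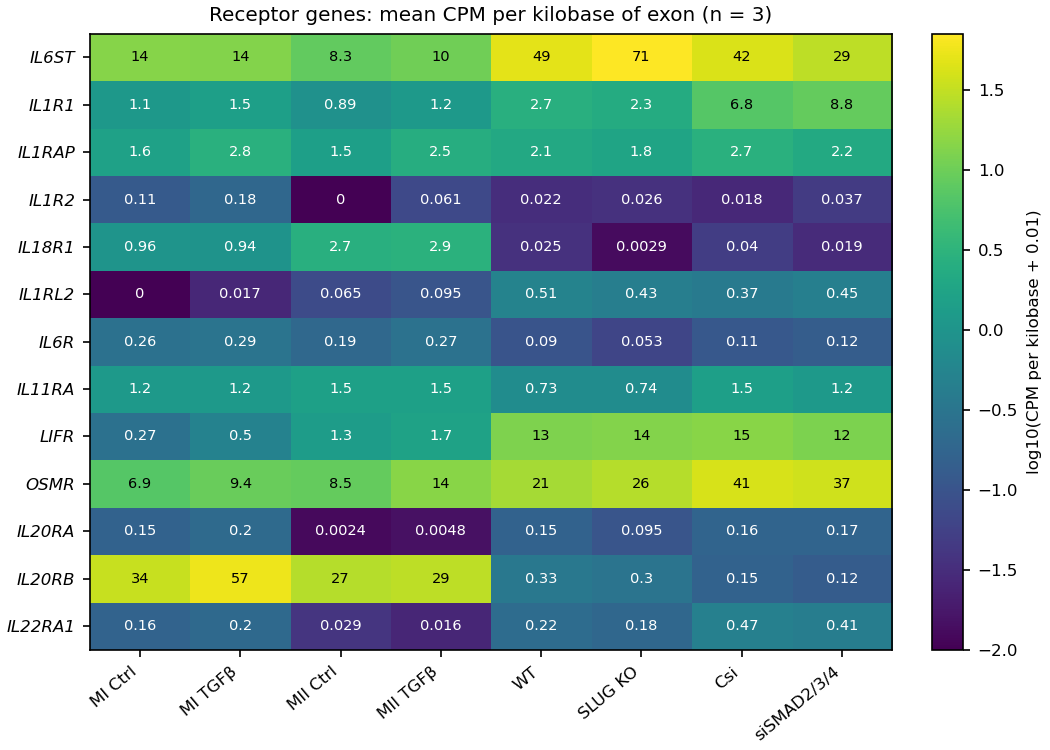
Mean CPM per kilobase of exon (number in each cell, n = 3) of IL6ST and 12 receptor genes by group, with colour on a log10 scale after adding 0.01. LIFR and OSMR were highest in MDA-MB-231 groups and IL20RB in spheres.

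TGFβ in MI-spheres was accompanied by lower IL36G, IL24, LIF and IL1RN and by higher IL1A. IL24 counts went from 29, 25 and 15 in Ctrl to 0, 3 and 1 with TGFβ. Over the group this was 69 against 4 counts, 16.8 times as much RNA in Ctrl with a 95% counting interval of 6.25 to 63.2. IL36G (73 against 9 counts) was 7.88 times as high in Ctrl, with an interval of 3.93 to 17.9. LIF stood at 21.2, 18.9 and 21.3 CPM in Ctrl and 10.1, 11.01 and 11.8 with TGFβ, a log2 fold-change of -0.98 (95% interval -1.17 to -0.79). IL1RN went from 65.8, 67.4 and 62.6 CPM to 46.6, 43.6 and 42.4, a log2 fold-change of -0.65 (-0.78 to -0.51). In all 4 genes every TGFβ library lay below every Ctrl library. How many of all genes lay apart in this way is not given, and 9446 of 16863 had an edgeR adjusted p under 0.05 whatever their fold.

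IL1A moved the other way in MI-spheres, from 16.3, 16.7 and 16.9 CPM to 27.2, 26.5 and 32.2, a log2 fold-change of 0.70 (0.53 to 0.88). IL18 (0.19, 0.077 to 0.31) and IL1B (0.18, -0.029 to 0.40) were slightly higher, without overlap of their libraries. IL11 (-0.098, -0.39 to 0.20) and IL6ST (-0.14, -0.26 to -0.015) overlapped between the groups. IL6, at 16, 5 and 12 counts in Ctrl and 2, 7 and 0 with TGFβ, did not pass the filter on low counts. Of the 9 members that passed, 2 were DEGs (absolute log2 fold-change above 1 and adjusted p under 0.05), both lower, and 4 were without MI Ctrl replicate 2. Of the 16863 genes tested 9.92% were lower DEGs and 3.64% were higher DEGs. These libraries also chose the members, so the count is not read further.

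In MII-spheres TGFβ went with higher IL1A and IL11, and LIF and IL1RN were not lower. IL1A was at 1.32, 1.67 and 1.78 CPM in Ctrl and 5.75, 4.997 and 6.18 with TGFβ, a log2 fold-change of 1.77 (95% interval 1.36 to 2.17). IL11 was at 0.926, 0.602 and 1.17 CPM in Ctrl and 2.37, 2.60 and 2.51 with TGFβ, a log2 fold-change of 1.498 (0.91 to 2.09). Neither gene overlapped between the groups. LIF rested at 35.6, 38.4 and 37.7 CPM and was at 47.1, 44.0 and 46.0 with TGFβ, a difference of 0.25 (0.13 to 0.38) on the log2 scale. IL6ST was higher by 0.30 (0.21 to 0.40), IL1B by 0.34 (-0.11 to 0.80) and IL1RN by 0.21 (0.002 to 0.42), while IL18 (-0.028, -0.11 to 0.056) overlapped. IL36G, IL6 and IL24, with at most 6 counts in any MII library, did not pass the filter. Of the 7 that passed, 2 were DEGs, both higher, where 3.12% of 16396 genes were higher DEGs and 7.5% were lower DEGs.

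The difference of the TGFβ response between the lines (MII minus MI, on the log2 scale, from a fit of all 12 sphere libraries) was 1.62 for IL11 (95% interval 1.01 to 2.23), 1.25 for LIF (1.03 to 1.47), 1.07 for IL1A (0.68 to 1.46), 0.87 for IL1RN (0.64 to 1.10) and 0.45 for IL6ST (0.30 to 0.60). It was -0.21 for IL18 (-0.36 to -0.063) and 0.18 for IL1B (-0.26 to 0.61). For IL36G and IL24, with at most 2 counts in any MII library, no difference of responses is given. In this fit 12.6% of 18591 genes passed the test with a more positive response in MII and 9.75% with a more positive one in MI. Of the 9 members, 5 lay past the same cut-off in the first direction and 1 in the second, from which nothing is read since the members were selected on these libraries.

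The target genes of the pathways were tested, on lists drawn up with earlier results of these data known. The first comparison was TGFβ against Ctrl in MI-spheres. Of 16 NF-κB target genes known to be induced by IL-1, 14 were tested in that comparison, 13 fell and none rose. Their median log2 fold-change was -2.13, against -0.016 over all genes tested. LCN2, an iron-carrier-binding protein of the acute phase, fell from 243 ± 5.1 to 16.1 ± 1.2 CPM (log2 fold-change -3.99, edgeR adjusted p = 1.57e-20). The feedback inhibitors TNFAIP3 (-2.29), NFKBIA (-1.36) and ZC3H12A (-1.67), the survival factor BIRC3 (-2.53), the cofactor NFKBIZ (-1.88) and the neutrophil chemokine CXCL8 (-1.83) also fell, with edgeR adjusted p from 4.14e-17 to 4.47e-15. BCL6, a repressor on the STAT3 list, fell by 1.43 (9.98e-14), and it was among 3 of 11 tested STAT3 targets that fell, with none that rose. Of 16 JAK and STAT genes, SOCS2 and CISH rose and SOCS1 and SOCS3 fell, all 4 inhibitors of the pathway. Of the 10 IL-1 adaptors and kinases 9 were tested, of which none rose and 1 fell. Over all lists 3 of 81 tested genes rose and 20 fell, where 3.64% of 16863 genes were higher DEGs and 9.92% were lower DEGs. Marker lists moved in the same libraries. The summed level of 8 basal epithelial markers was between 3217 and 3287 CPM in Ctrl and between 5203 and 5431 with TGFβ. For 5 mesenchymal markers it was between 80.1 and 83.0 CPM in Ctrl and between 289 and 319 with TGFβ, for 6 fibroblast markers between 20.8 and 23.0 and between 38.5 and 41.0, and for 4 endothelial markers between 31.4 and 34.5 and between 13.3 and 14.7. Their part in the result was not tested.

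In MII-spheres 5 of 74 tested pathway genes rose and 4 fell, where 3.12% of 16396 genes were higher DEGs and 7.5% were lower DEGs. Of the NF-κB targets 3 of 12 rose, among them CXCL8 (from 8.14 ± 0.77 to 17.0 ± 2.2 CPM, log2 fold-change 1.01, edgeR adjusted p = 3.1e-11) and CXCL1 (1.25, 5.82e-11), and ZC3H12A fell (-1.26, 8.64e-19). The median of that list was -0.061, against -0.018 over all genes. FGB, a fibrinogen chain on the STAT3 list, rose from 0.506 ± 0.27 to 3.64 ± 0.83 CPM (2.95, 4.84e-11). IL27RA, a receptor that pairs with gp130, rose (2.31, 3.49e-05), while the kinase gene PIM1 (-1.02, 2.67e-20), the JAK inhibitor SOCS1 (-2.22, 5.89e-16) and the inflammasome sensor NLRP1 (-1.17, 6.84e-10) fell. PIM1 and CXCL8 stood close to the fold threshold, and neither was a DEG under every alternative (PIM1 at -0.99 with DESeq2, CXCL8 at 0.97 with at least 10 counts in each library).

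The interaction test put the NF-κB targets apart between the lines. Of the 14 tested, 12 had a more positive response in MII and none in MI, where 12.6% and 9.75% of 18591 genes did. The difference was 3.98 for LCN2 (edgeR adjusted p = 1.53e-32), which was at 1314 ± 16 CPM in MII Ctrl and 1325 ± 7.1 with TGFβ, 2.95 for BIRC3 (3.55e-23) and 2.84 for CXCL8 (4.32e-20). Of 12 STAT3 targets 7 were more positive in MII and 3 in MI. Among the receptors IL1RAP, the shared partner of the IL-1 receptors, was higher with TGFβ by 0.72 in both lines (adjusted p of 1.49e-07 and 8e-11, under the fold threshold of a DEG), and its difference between lines was 0.0019 (95% interval -0.23 to 0.24). OSMR responded more in MII (0.35, adjusted p = 0.00202) and LIFR (-0.55, 0.014) and IL20RB (-0.54, 5.02e-06) responded less.

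**Figure D3:**
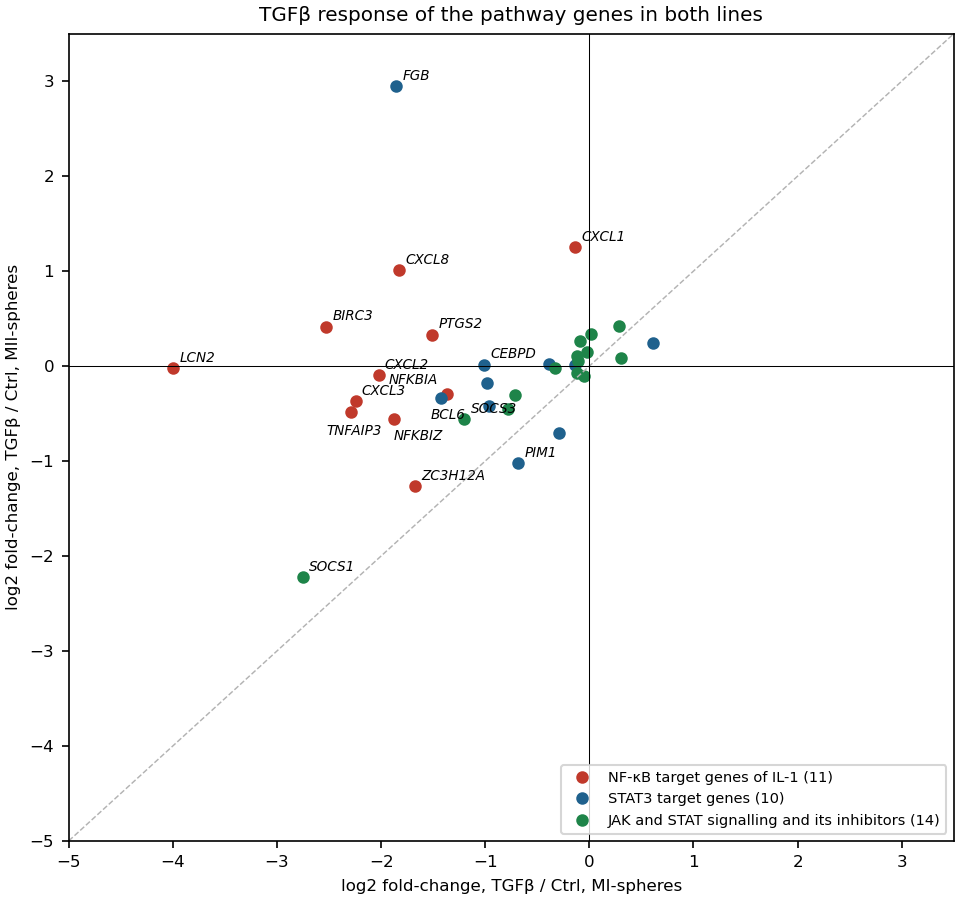
Log2 fold-change with TGFβ in MI-spheres (horizontal axis) and MII-spheres (vertical axis) for the genes of 3 pathway lists tested in both lines, with a dashed line of equal response. Most NF-κB targets (red) lie left of 0 and above the dashed line, as LCN2 at -3.99 and -0.024 and CXCL8 at -1.83 and 1.01.

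Set against MI-spheres, MII-spheres had less IL1A, IL1B, IL1RN, IL36G, IL11 and IL24, and more LIF and IL18. Both line comparisons use the same libraries as the TGFβ comparisons. Unstimulated, IL1A was at 1.32 to 1.78 CPM in MII and 16.3 to 16.9 in MI, a log2 fold-change of -3.35 (95% interval -3.62 to -3.07). IL1RN (-2.47, -2.61 to -2.33), IL1B (-2.18, -2.48 to -1.88) and IL11 (-2.68, -3.14 to -2.23) were lower in every MII library. IL24 had 1 count in the 3 MII Ctrl libraries and 69 in MI Ctrl, a ratio of 66.0 with a 95% counting interval of 11.4 to 2642. IL36G, with 2 against 73 counts, had a ratio of 34.9 (9.32 to 293.5).

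LIF (0.88, 0.74 to 1.01) and IL18 (0.54, 0.45 to 0.62) were higher in every MII library and IL6ST (-0.75, -0.84 to -0.66) was lower in every one. Of the 9 members that passed the filter, 6 were lower DEGs, where 7.62% of 17862 genes were lower DEGs and 12.5% were higher DEGs. With TGFβ in both lines the spread between them narrowed for IL1A (-2.27, -2.50 to -2.04), IL1RN (-1.59, -1.77 to -1.42) and IL11 (-1.06, -1.44 to -0.68) and widened for LIF (2.13, 1.96 to 2.30), which was at 44.0 to 47.1 CPM in MII and 10.1 to 11.8 in MI. Of the 7 members that passed, 4 were lower DEGs and 1 was a higher DEG, where 7.55% and 12.2% of 15878 genes were.

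Among the tested pathway genes, 11 of 13 NF-κB targets fell and 2 rose in unstimulated MII against MI. Of 17862 genes, 7.62% were lower DEGs and 12.5% were higher DEGs there. CXCL8 was at 8.14 ± 0.77 CPM in MII and 133 ± 5.1 in MI (log2 fold-change -3.99, edgeR adjusted p = 1.66e-47), and CXCL1 (-3.42, 7.1e-38), TNFAIP3 (-3.35, 2.29e-39), NFKBIA (-2.22, 8.65e-46) and BIRC3 (-1.78, 4.82e-33) were also lower. LCN2, at 1314 CPM in MII and 243 in MI (2.45, 6.6e-50), and NFKBIZ, at 293 against 141 CPM (1.07, 2.66e-31), were those that rose. The fibrinogen genes FGB (-6.13, 8.78e-38) and FGG (-6.63, 2.54e-32) were lower. Of the ligand receptors LIFR (2.34, 5.88e-24) and IL18R1 (1.496, 7.04e-16) rose, and IL20RA fell from 47 counts over the MI libraries to 1 over the MII libraries (8.89e-08). With TGFβ, 4 of 13 NF-κB targets rose and 6 fell, where 12.2% of 15878 genes were higher DEGs and 7.55% were lower DEGs. LCN2 differed there by 6.43 (1.01e-26). In that comparison NFKBIZ (2.40, 3.86e-20), BCL6 (1.48, 6.83e-15) and the protease inhibitor SERPINA3 (5.26, 4.39e-16) rose, and FGG (-4.55, 3.24e-15), CXCL1 (-2.01, 7.47e-15), the inflammasome adaptor PYCARD (-1.57, 2.95e-14) and NFKBIA (-1.13, 3.18e-14) fell.

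The libraries labelled SLUG KO differed from WT in members of all the families, with IL11 lower and IL24, IL1RN, IL6 and IL18 higher. SLUG, encoded by SNAI2, is a zinc-finger repressor that binds E2-boxes. IL11 was at 17.1, 25.1 and 21.8 CPM in WT and 0.715, 0.457 and 0.634 in SLUG KO, a log2 fold-change of -5.16 (95% interval -5.81 to -4.50). IL24 was at 1.13, 0.952 and 2.41 CPM in WT and 22.0, 22.7 and 21.5 in SLUG KO (3.86, 3.01 to 4.70). IL1RN was at 0.563, 0.373 and 0.402 CPM in WT and 6.04, 5.39 and 5.66 in SLUG KO (3.63, 2.98 to 4.27). None of these groups overlapped. IL6 was at 9.94, 5.92 and 8.21 CPM in WT and 33.6, 31.1 and 43.4 in SLUG KO (2.14, 1.53 to 2.74), and IL18 at 14.5, 11.6 and 17.5 against 32.6, 28.9 and 29.1 CPM (1.03, 0.57 to 1.499). These directions rest on the label and on the authors' checks of the knockout clones, since SNAI2 RNA was higher in the same libraries.

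Without WT replicate 2 the values were -4.999 for IL11, 3.64 for IL24, 3.53 for IL1RN, 1.97 for IL6 and 0.91 for IL18, of which IL18 was then no DEG. The agonists IL1A (-0.26, -0.98 to 0.46) and IL1B (-0.57, -1.82 to 0.69) overlapped between SLUG KO and WT. IL1A stood at 0.021 without WT replicate 2, and IL1B turned to 0.25 (-0.50 to 0.99) without WT replicate 2, where it was highest at 3.48 CPM. LIF (0.31, -0.27 to 0.88) stood at 0.61 without that library, which held 57.3 CPM beside 32.0 and 37.8. IL6ST (0.49, -0.37 to 1.35) was higher in every SLUG KO library than in every WT library, and stood at 0.16 without replicate 2. IL36G, with at most 2 counts in a library, did not pass the filter. Of the 9 members that passed, 4 were higher DEGs, where 1.25% of 17428 genes were, and 1 was a lower DEG, where 1.8% were. The libraries that gave these calls also chose the members.

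Of 81 tested pathway genes, 4 rose and 2 fell in the libraries labelled SLUG KO, where 1.25% and 1.8% of 17428 genes did. IL27RA (27.5 ± 1.9 against 11.3 ± 0.92 CPM, log2 fold-change 1.26, edgeR adjusted p = 0.0103), NFKBIA (1.07, 0.0148), CSF2, a growth factor of myeloid cells (1.23, 0.0292), and PYCARD (1.12, 0.0406) rose. IRAK3, an inhibitory kinase of the IL-1 receptor, fell (-2.55, 0.0219), as did PTGS2, the prostaglandin synthase, with 1 count over the 3 SLUG KO libraries and 81 over WT (a ratio of 74.1 with a counting interval of 12.9 to 2961, edgeR adjusted p = 0.0164). Without WT replicate 2 these 6 were still DEGs, with IL27RA at 1.30, NFKBIA at 1.10, CSF2 at 1.21, PYCARD at 1.15 and IRAK3 at -2.78, among 14 pathway genes in all. Without replicates 1, 2 or 3 of SLUG KO or WT replicate 1, none was, and without WT replicate 3 there were 3. The block on replicate number left 2, PTGS2 and IRAK3. Of the 12 ligand receptors 10 were tested and none was a DEG.

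siRNAs against SMAD2, SMAD3 and SMAD4, which carry TGFβ signals to the nucleus, went with lower IL11, IL6ST and LIF, all by less than the fold threshold. IL11 was at 10.3, 10.5 and 10.1 CPM in Csi and 5.86, 4.78 and 5.78 in siSMAD2/3/4, a log2 fold-change of -0.92 (95% interval -1.13 to -0.70). IL6ST was at 422, 448 and 419.9 CPM in Csi and 297, 284 and 301 in siSMAD2/3/4 (-0.56, -0.64 to -0.47). LIF was at 50.5, 49.2 and 51.1 CPM in Csi and 47.3, 43.0 and 43.4 in siSMAD2/3/4 (-0.18, -0.29 to -0.070). The groups did not overlap for these 3 genes, and the share of all genes without such overlap is not given. The labels give 1 flow cell for both groups, whereas the file names put siSMAD2/3/4 replicates 1 and 2 on another than Csi, and the conflict could not be settled. By the file names replicate 3, on the flow cell of Csi, had 5.78 CPM of IL11 and 301 of IL6ST, also below all Csi libraries.

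The other members overlapped between Csi and siSMAD2/3/4. IL6 (0.15, -0.076 to 0.37) and IL18 (0.090, -0.082 to 0.26) had the tightest intervals, and IL1A (-0.32, -1.16 to 0.52), IL1B (0.14, -0.51 to 0.80), IL1RN (-0.59, -1.51 to 0.33) and IL24 (-0.52, -1.44 to 0.39) the widest, at 35 counts or fewer per library. No member was a DEG by edgeR or by DESeq2, where 0.978% of 17696 genes were higher and 0.927% lower DEGs. The 95% interval excluded 0 for 3 of the 9 members tested. By a stricter cut-off, an edgeR adjusted p under 0.05 whatever the fold, 6365 of the 17696 genes passed. The lower IL11, IL6ST and LIF are therefore not read as particular to the members. Of 86 tested pathway genes 2 rose, FGB (4.12 ± 0.40 against 1.17 ± 0.084 CPM, log2 fold-change 1.81, edgeR adjusted p = 1.72e-09) and FGG (1.46, 0.000593), and NLRP3, an inflammasome sensor, fell (-1.72, 1.23e-05). IL1R1 was higher by 0.36 (7.21e-07), under the fold threshold.

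Across the 24 libraries, the genes whose log2 CPM followed each member most closely were taken, 3 for each. For IL6 they were CFAP251, VCAM1 and DOCK11 (Pearson's r of 0.983, 0.978 and 0.976). For IL6ST they were CUL4B, ECT2 and EXOSC9 (0.991, 0.990 and 0.988), for IL18 FGD4, MIA2 and CYP4X1 (0.994, 0.994 and 0.990) and for LIF UPP1, CARD10 and FZD7 (0.972, 0.956 and 0.954). IL1A was followed by SNORA74B, EIF3K and RPL19 (0.970, 0.968 and 0.966), IL1B by GBP6, FAM153CP and FAM83G (0.962, 0.960 and 0.959) and IL1RN by FUT1, SDC4 and ZDHHC23 (0.980, 0.972 and 0.971). The values were lower for IL11, with SYNE1, ADAMTS1 and LINC01615 (0.922, 0.870 and 0.867), for IL24, with TBC1D12, DUSP10 and CERS3-AS1 (0.921, 0.914 and 0.906), and for IL36G, with CES1, VNN3P and SERPINB10 (0.917, 0.914 and 0.888). The libraries share line, culture and batch, and over the 18 libraries of the first batch r for these 30 genes was between 0.874 and 0.992. These are descriptions of likeness over libraries that fall into few groups.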

How the data were processed

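RNA-seq was measured in 24 libraries. Per the file headers, the deposited tables hold raw fragment counts of 1 library each for 60708 genes, made by the authors with featureCounts (Subread 2.0.0) over GENCODE 38 exons on GRCh38, with pairs mapped at both ends, a mapping quality of at least 30 and no strand. Reads were trimmed with Trimmomatic and aligned with STAR. The 16 ATAC-seq samples were not analysed here.

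Genes were named for 60463 IDs (99.6%), and SOD2, 1 of 112 pathway genes, was not matched. Members, lists and tests were chosen with earlier results of these data known. Named pathway genes are the 8 DEGs per comparison with the smallest adjusted p and groups that do not overlap, and the receptors. Each comparison used its 6 libraries (12 for the interaction), filterByExpr, TMM and the quasi-likelihood test of edgeR 4.0.16 (R 4.3.3). P-values were adjusted by Benjamini-Hochberg across the whole table, and a DEG had to pass 0.05 and differ by over 1 on the log2 scale. DESeq2 1.42.0 was an alternative. CPM in the text are scaled over all 24 libraries, so their ratios can differ slightly from the fitted values. Labels give no shared culture or day, and the correlation of deviations between same-numbered libraries ran from -0.123 to 0.032, so the replicate numbers were not treated as pairs. The libraries are labelled biological replicates, and p-values measure the spread between them. Intervals of count ratios are exact, at 95%, and cover counting error only. The test was checked on simulated counts: of 200 genes changed 4-fold, 152 (SLUG KO against WT) to 193 (siSMAD2/3/4 against Csi) were recovered. Motifs were searched in the 250 bases before each RefSeq start. Some genes checked beside the members are not reported here.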

Additional observations from a re-analysis of the deposited data

Results flagged for a closer look

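LIF and IL1RN moved opposite ways with TGFβ in the sphere lines, without overlap of libraries in TMM-scaled CPM. On the log2 scale LIF moved by -0.98 in MI and 0.25 in MII, and IL1RN by -0.65 in MI and 0.21 in MII. The 95% interval of IL1RN in MII was 0.002 to 0.42. The fitted differences between the lines, 1.25 for LIF and 0.87 for IL1RN, are a description and are not taken as a test, since the members were chosen on these counts.

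For 12 named pathway genes the TGFβ response differed between MII and MI by the interaction test of edgeR, which compares the responses over all 12 sphere libraries. SOCS1 and IL27RA, also named for TGFβ, were not flagged. The genes had been named for a strong response in at least 1 line of these same libraries. That choice favours a difference between the lines. The response was more positive in MII for FGB (4.84, adjusted p = 2.07e-16), LCN2 (3.98, 1.53e-32), BIRC3 (2.95, 3.55e-23), CXCL8 (2.84, 4.32e-20), TNFAIP3 (1.82, 2.23e-10), CXCL1 (1.40, 3.51e-10), NFKBIZ (1.33, 8.89e-18), BCL6 (1.10, 2.3e-14), NFKBIA (1.081, 3.65e-15) and ZC3H12A (0.42, 0.00219). It was less positive in MII for NLRP1 (-1.35, 4.89e-07) and PIM1 (-0.33, 0.00824).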

How the results depend on the processing

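No fold-change of a member whose interval excluded 0 changed sign under any alternative, and 712 of 735 refitted values of the members stayed within 1 SE of the reported value. Of 477 refitted values of named pathway genes, 435 kept their call and 42 kept the direction only. Under a filter of 10 counts in each library, members called went from 2 to 1 for TGFβ in MI-spheres and from 5 to 3 for SLUG KO against WT, and pathway genes called from 9 to 5 for TGFβ in MII-spheres, from 26 to 17 for unstimulated MII against MI and from 6 to 3 for SLUG KO against WT. Most of these genes were then no longer tested, but CXCL8 in MII-spheres and IL18 and PYCARD in SLUG KO were tested and missed the cut-off. Leaving out 1 library gave 2 to 4 called members for TGFβ in MI-spheres, the 4 without MI Ctrl replicate 2, and 0 to 14 called pathway genes for SLUG KO against WT, the 14 without WT replicate 2. The replicate block changed pathway genes called in that comparison from 6 to 2, dropped IL18 there (4 members called) and left the count within 1.5 times in all other comparisons. Counts over all genes for SLUG KO against WT moved from 217 higher and 314 lower to 386 and 560 under DESeq2 and to 87 and 168 with the replicate block. The causes of the other changes were not tested. With flow cell, as the file names give it, as a term in the siSMAD2/3/4 comparison, 0 members were called, IL6ST stood at -0.51 and IL1RN at -0.11. Without TMM scaling, 14 of 80 group levels moved by more than 1 SD, among them IL18 in MI TGFβ, to 136 CPM, and IL6ST in MI TGFβ, to 117 CPM. Low counts, of at most 30 in any sphere library, limit IL24, IL36G and IL6 there.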
